A study of Rattus norvegicus with 6 samples.

Results

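Of the 33350 gene models in the expression table, 9 were taken by symbol as immunoglobulin-type neural adhesion molecules: Ncam1, L1cam, Nrcam, Chl1, Nfasc, Cntn1, Mcam, Alcam and Thy1. Each symbol had 1 row, so no row had to be chosen. RNA came from 6 libraries labelled as rat PC12 cells, a line from an adrenal pheochromocytoma used as a model of neuronal differentiation. Exosomes, the small vesicles that cells release, had been given to the cells of both groups. In the 3 EC libraries they came from control endothelial cells. In the 3 EN libraries they came from endothelial cells with high expression of netrin-1 (NTN1), a secreted guidance protein. The sources used here do not give the dose, the exposure time, the origin of the endothelial cells or the way netrin-1 was raised. PC12 is 1 line, and no library of cells without exosomes was analysed here.

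These proteins carry extracellular immunoglobulin domains and bind one another, or partners, across the gap between cells. They hold axons in bundles, guide growth cones and keep axons in contact with Schwann cells, and several are re-expressed when a nerve regenerates. Ncam1 encodes the neural cell adhesion molecule, which can carry long polysialic acid chains. L1cam, Chl1, Nrcam and Nfasc form the L1 family, which is tied to the membrane skeleton through ankyrins. Mcam (CD146) and Alcam (CD166) are related adhesion receptors, and Mcam, well known from endothelium, has also been described as a receptor for netrin-1. Cntn1 (contactin-1) and Thy1 have no membrane-spanning part and are held by a glycosylphosphatidylinositol (GPI) anchor.

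Levels are given as FPKM, which corrects read numbers for the length of the gene and the size of the library. Whole reads worked back from them totalled 15296193 to 16165804 in EC and 16654025 to 19626012 in EN, so every EN library was the deeper. Mitochondrial genes held 5.43% to 6.09% of reads in EC and 4.40% to 5.50% in EN. Defining chromaffin genes were low under the PC12 label: Th, the rate-limiting enzyme of catecholamine synthesis, averaged 1.29 FPKM in EC and 1.66 in EN, and no read was counted for Pnmt or Hand2. Of 16 chromaffin markers, 3 averaged at least 1 FPKM, and the list summed to 67.8 to 74.1 FPKM per library, mostly from Scg2. Of 13 Schwann and glial markers in the table, 11 did, and their sum was 421.9 to 487.6 FPKM. The identity of the cells was not tested, and the libraries are therefore named only as labelled. Testing covered the 12198 genes whose mean reached 1 FPKM. In limma, with p adjusted by Benjamini-Hochberg and a threshold of 0.05, 1754 genes (14.4%) passed, of which 883 (7.24% of those tested) rose and 871 (7.14%) fell in EN. That number dropped to between 338 and 446 when EC replicates 2 or 3 or EN replicates 1 or 2 were left out. EN replicate 3 stood somewhat apart from its group: its reads gave a chi-square, divided by the degrees of freedom, of 8.98 against EN replicate 1 and 6.50 against EN replicate 2, while those 2 libraries differed by 3.82. Against the EC libraries its value was 10.6 to 14.6, and each of these was below that of EN replicates 1 and 2 against the same EC library (12.1 to 23.4). With it left out 2059 genes passed, and the adhesion genes are given below with and without it. The labels do not state that replicates were separate cultures, so the spread behind each p may be technical.

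The 9 genes spanned the range from strong expression to near silence, in the order Ncam1, Mcam, Alcam, Chl1, L1cam, Nfasc, Nrcam, Thy1 and Cntn1. Ncam1 alone made up 63.7% to 67.0% of their summed FPKM in every library, and Mcam 16.5% to 21.7%. The sum itself averaged 238.8 ± 2.97 FPKM over the EC libraries and 197.1 ± 3.89 over the EN libraries (SD, n = 3 each). Of these genes, 4 (Ncam1, Mcam, Alcam and Chl1) reached the minimum for testing and 5 did not. Both Mcam and Ncam1 were lower in EN (2 of the 4 tested, against 7.14% of all tested genes), while Chl1 and Alcam did not pass. The EN libraries lay wholly below the EC libraries in 3 of the 4 tested genes, against 19.4% of all tested genes, or 37.9% when separation in either direction is counted. The 4 tested genes had a median log2 change of -0.21, against -0.0028 for all tested genes. In bulk RNA, fewer cells of a type and less RNA per cell cannot be told apart.

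**Figure D1:**
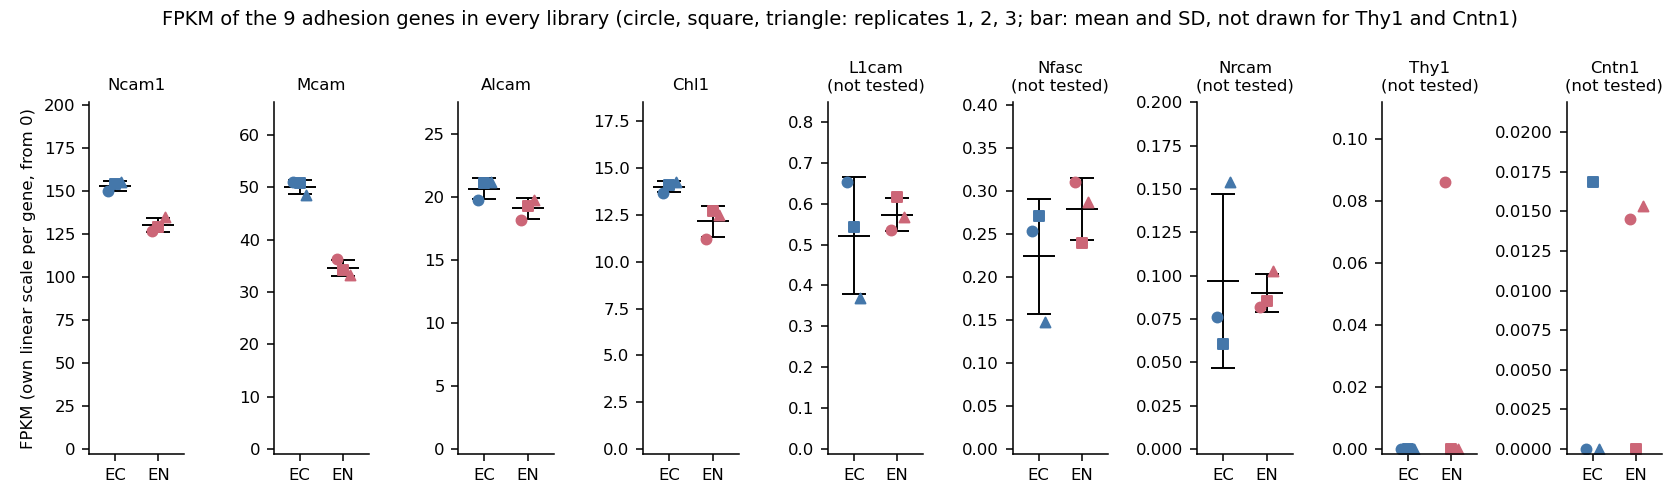
FPKM of each of the 9 genes in every library, on its own linear scale from 0, with EC in blue and EN in red. Mcam, Ncam1 and Chl1 show EN libraries all below the EC libraries, while the groups overlap for Alcam and for the 5 genes that were too low to test.

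Promoter windows are shown to set moderately and barely expressed genes side by side. The strongly expressed Ncam1 and Mcam had no window, and a link between CG number and level was not tested. The RefSeq promoter table of the GRCr8 build, which differs from the Rnor_6.0 build of the expression table, matched 4 of the 9 genes (Chl1, Nfasc, Cntn1 and Alcam). Each run below is the 250 bases before the gene start, 5′ to 3′, with CG dinucleotides in capitals. The windows are chr11:61805207-61805456 for Alcam, chr4:137847645-137847894 for Chl1 and chr7:125252060-125252309 for Cntn1, all on the plus strand of GRCr8.
Alcam: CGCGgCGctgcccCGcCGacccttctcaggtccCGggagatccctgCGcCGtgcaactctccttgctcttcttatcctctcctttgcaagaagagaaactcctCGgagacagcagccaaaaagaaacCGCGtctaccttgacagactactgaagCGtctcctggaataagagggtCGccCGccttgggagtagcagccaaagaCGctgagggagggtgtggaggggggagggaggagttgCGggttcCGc
Chl1: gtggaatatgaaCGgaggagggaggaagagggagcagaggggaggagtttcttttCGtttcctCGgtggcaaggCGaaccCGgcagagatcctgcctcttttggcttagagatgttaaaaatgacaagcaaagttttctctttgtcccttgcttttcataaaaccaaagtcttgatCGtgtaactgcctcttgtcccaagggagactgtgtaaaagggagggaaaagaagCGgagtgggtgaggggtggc
Cntn1: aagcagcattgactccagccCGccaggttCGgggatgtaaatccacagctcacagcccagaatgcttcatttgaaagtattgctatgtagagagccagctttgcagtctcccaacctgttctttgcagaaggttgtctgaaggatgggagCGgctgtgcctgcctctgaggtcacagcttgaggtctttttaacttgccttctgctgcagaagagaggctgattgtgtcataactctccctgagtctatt
The Alcam window held 17 CG dinucleotides, a number reached by 23.7% of the 27457 promoters in that table. The Chl1 window held 7 and the Cntn1 window 3, against a median of 6. Nfasc has a pair of windows in the table, with 4 and 2. Alcam averaged 19.9 FPKM and Chl1 13.1, against 0.252 for Nfasc and 0.0078 for Cntn1.

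Ncam1 (Rnor_6.0, chromosome 8, 53839098 to 53901358, minus strand) was the highest of the 9 genes. Its FPKM was 150.0, 154.1 and 155.4 in EC replicates 1 to 3, and 127.1, 129.1 and 134.9 in EN replicates 1 to 3. All EN libraries lay below all EC libraries. The means were 153.2 ± 2.81 and 130.3 ± 4.03 (SD, n = 3 each), a 1.18-fold decrease. The log2 change was -0.23 with an SE of 0.037 (limma adjusted p = 0.0135). It is taken on log2(FPKM + 1), as are all log2 changes here, so the change of genes near 1 FPKM is understated. The call was lost when EC replicates 2 or 3 or EN replicates 1 or 2 were left out, where the adjusted p rose to between 0.0513 and 0.0647 at log2 changes of -0.23 to -0.21. Leaving out EN replicate 3 gave -0.26 (adjusted p = 0.0133). With 9839 to 11369 reads per library, counting error is small for this gene.

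A separate gene model, the long noncoding AABR07070131.1 on the plus strand (53831526 to 53838620), ends 478 bases beyond the annotated 3′ end of Ncam1 (singled out after its values were seen). Its FPKM was 94.5, 101.9 and 90.4 in EC and 83.6, 80.2 and 83.6 in EN replicates 1 to 3, again with no overlap between the groups. Its log2 change was -0.21 (SE 0.051, limma adjusted p = 0.0391), close in size to that of Ncam1, but it was not past the threshold without any one of the 6 libraries (adjusted p 0.0513 to 0.131). The log2 ratio of this model to Ncam1 averaged -0.68 in EC and -0.66 in EN (exact two-sided permutation p = 0.9). Whether counting used strand is not stated, so reads of a Ncam1 transcript that runs past its annotated end cannot be told apart from reads of this model.

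Mcam (chromosome 8, 48472824 to 48481001, plus strand) had the largest change of the 4 tested genes. Its FPKM was 51.0, 50.7 and 48.5 in EC replicates 1 to 3, and 36.2, 34.1 and 33.3 in EN replicates 1 to 3. The gap between the groups was wide against the spread within them. The means were 50.1 ± 1.35 and 34.5 ± 1.54 FPKM (SD, n = 3 each), a 1.45-fold decrease. The log2 change was -0.52 with an SE of 0.046 and a 95% interval of -0.63 to -0.42 (limma adjusted p = 0.00244). Of the 871 genes lower in EN, 91 had a larger log2 decrease. Mcam stayed past the threshold without each library in turn, at adjusted p of 0.00657 to 0.0209 and log2 changes of -0.56 to -0.50, the latter with EN replicate 3 left out (adjusted p = 0.00706).

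Alcam (chromosome 11, 50781127 to 50985083, plus strand), the related receptor, did not pass. It was at 19.7, 21.1 and 21.2 FPKM in EC and 18.2, 19.3 and 19.8 in EN replicates 1 to 3, with EN replicate 3 just above EC replicate 1. The means of 20.7 ± 0.814 and 19.1 ± 0.803 FPKM (SD, n = 3 each) differed by -0.11 on the log2 scale (SE 0.052, limma adjusted p = 0.194). Leaving out EN replicate 3 gave -0.13 (adjusted p = 0.145). The 95% interval with all libraries ran from -0.23 to 0.013 and does not reach the interval of Mcam.

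**Figure D2:**
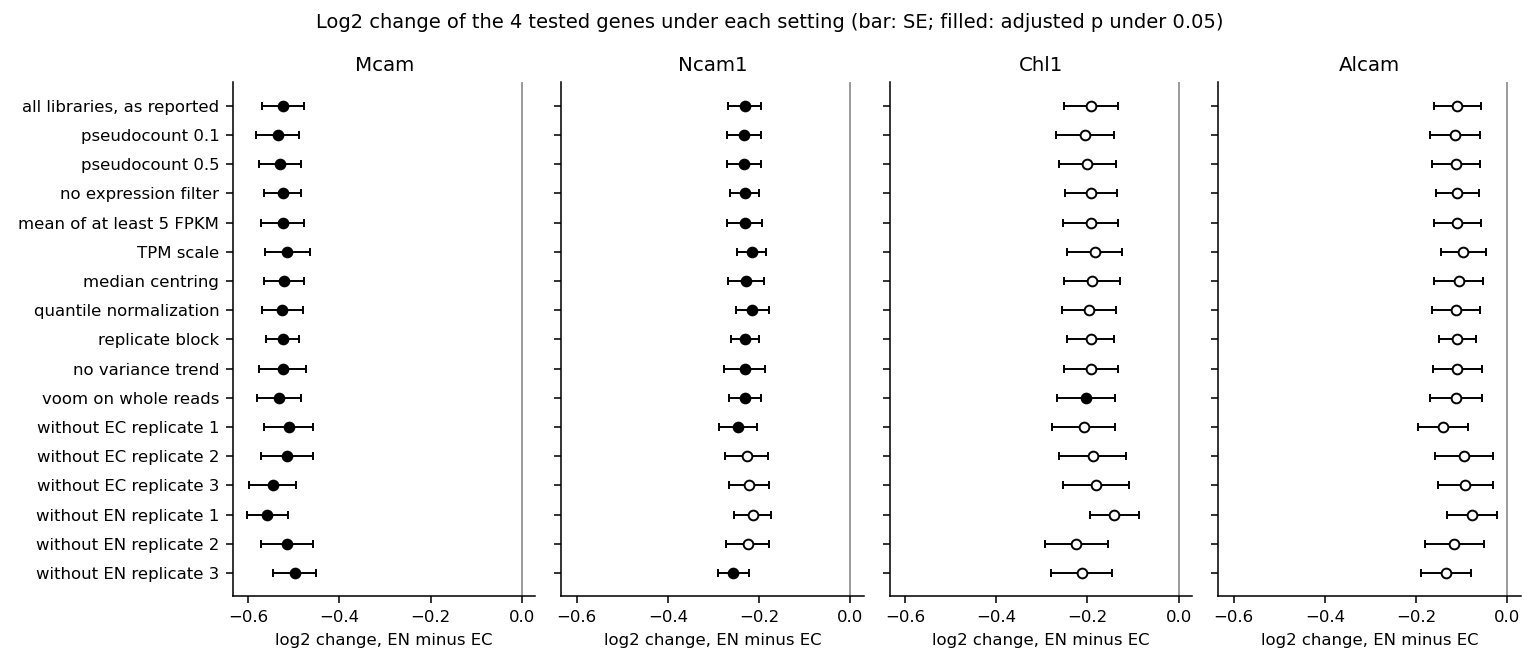
Log2 change (EN minus EC) of Mcam, Ncam1, Chl1 and Alcam with all libraries and under each alternative setting. Bars are SE and filled points have an adjusted p under 0.05: Mcam is filled throughout, Ncam1 in all settings except 4 of those that leave out a library, Chl1 only with voom, and Alcam in none.

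The models around Mcam were read because Thy1 lies 85889 bases away from it (a choice made after the coordinates were seen). Within 250 kb of Mcam, 19 of 29 other gene models were high enough to test. Of these, 18 did not pass and 1 was higher, while 14.4% of all tested genes passed. The nearest tested neighbours were Cbl, a ubiquitin ligase 8035 bases away at 12.5 and 12.7 FPKM, and Rnf26 at 34.0 and 35.3 FPKM in EC and EN. C1qtnf5, at 27187 bases, had a log2 change of -0.30 that did not pass (adjusted p = 0.108).

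**Figure D3:**
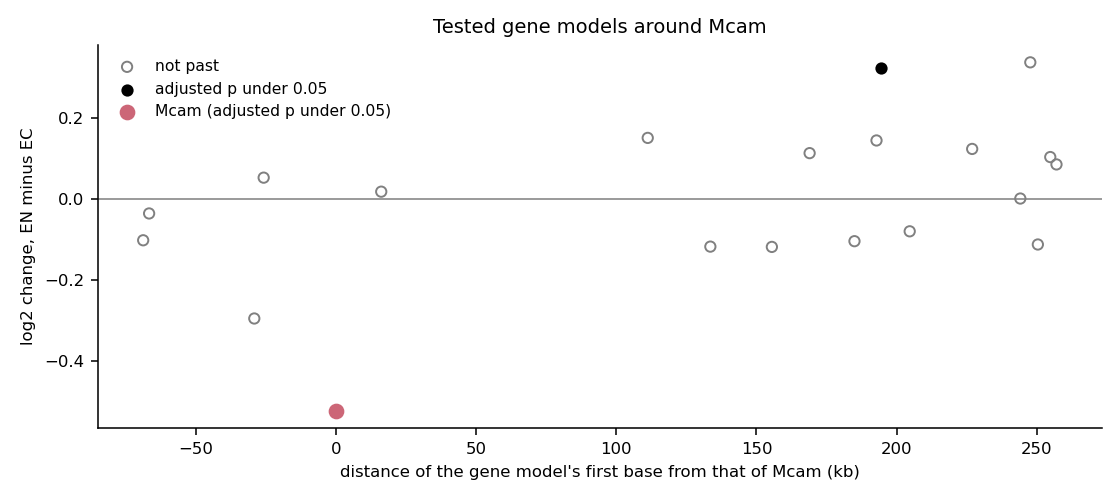
Log2 change (EN minus EC) of each tested gene model within 250 kb of Mcam, by the distance of its first base from that of Mcam in kb. Mcam, at -0.52, lies below every other point, and 1 neighbour, drawn filled, is past the threshold.

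Of the L1 family, 1 of 4 genes was expressed above the minimum. Chl1 (close homolog of L1; chromosome 4, 70252366 to 70330803, plus strand) was at 13.7, 14.1 and 14.3 FPKM in EC and 11.2, 12.7 and 12.5 in EN replicates 1 to 3. The EN libraries were all lower, but EN replicate 1 stood apart from the other two, and the spread in EN was wider than in EC (14.0 ± 0.293 and 12.2 ± 0.811 FPKM, SD, n = 3 each). The log2 change of -0.19 (SE 0.060, 95% interval -0.33 to -0.05) did not pass (limma adjusted p = 0.0729). Leaving out EN replicate 3 gave -0.21 (adjusted p = 0.0788). Chl1 passed with limma voom on whole reads, at -0.20 and an adjusted p of 0.0471, against 0.0569 to 0.188 under the other alternatives.

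L1cam (chromosome X, 156909913 to 156928057), which gives the family its name and is a classic axonal adhesion gene, was under the minimum. It had 59, 48 and 35 reads in EC and 55, 72 and 55 in EN replicates 1 to 3, or 0.522 ± 0.142 and 0.573 ± 0.041 FPKM (SD, n = 3 each). The pooled values had exact Poisson 95% intervals of 0.438 to 0.612 in EC and 0.495 to 0.665 in EN, which cover counting error only. The groups overlapped (exact two-sided permutation p = 0.8). Chl1 was thus above L1cam in every library.

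Nfasc (neurofascin; chromosome 13, 49335408 to 49522415), known from nodes of Ranvier and axon initial segments, was at 0.254, 0.271 and 0.148 FPKM in EC and 0.311, 0.239 and 0.288 in EN replicates 1 to 3 (exact permutation p = 0.3). Nrcam (chromosome 6, 64789940 to 64864996), another nodal adhesion gene, was at 0.076, 0.061 and 0.154 FPKM in EC and 0.082, 0.085 and 0.102 in EN (exact permutation p = 1). EC replicate 3 was the lowest library for L1cam and Nfasc and the highest for Nrcam. In both genes the EN values lay within or close to the EC range, so no difference was detectable at 7 to 57 reads per library. With 3 libraries against 3, these permutation tests cannot go below 0.1, and adjusted over the 5 untested genes each p was 1. The ranges of L1cam and Nfasc did not meet, while those of Nfasc and Nrcam overlapped.

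The GPI-anchored members were close to absent from the reads. Thy1 (chromosome 8, 48382121 to 48386935), a surface marker of neurons, fibroblasts and T cells, was seen with 2 reads in EN replicate 1 and with no read elsewhere. A count of 0 over the 3 EC libraries allows up to 0.048 FPKM (3 reads in all, counting error only). Cntn1 (chromosome 7, 133400485 to 133586677), the partner of contactin-associated proteins at paranodes, had 1 read in each of EC replicate 2, EN replicate 1 and EN replicate 3. With 2 and 3 reads in all, no difference between the groups was detectable at this depth for either gene. No other gene model overlapped any of the 9.

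Ratios within a library do not depend on how libraries are scaled, and 6 pairs of the 4 tested genes were compared (added after the values were seen). The log2 ratio of Mcam to Alcam was 1.37, 1.27 and 1.20 in EC and 0.99, 0.82 and 0.75 in EN replicates 1 to 3, a shift of -0.42. Mcam also shifted against Ncam1: the log2 ratio of Ncam1 to Mcam averaged 1.61 ± 0.062 in the EC libraries and 1.92 ± 0.105 in the EN libraries (SD, n = 3 each). Against Chl1 the shift of Mcam was -0.33. The groups did not overlap in 5 of the 6 pairs, each with an exact two-sided permutation p = 0.1, the smallest that 3 against 3 allows, and 0.12 after Benjamini-Hochberg adjustment over the 6 pairs. The exception was Ncam1 against Chl1, whose log2 ratio was 3.45 ± 0.0038 in EC and 3.42 ± 0.080 in EN (exact permutation p = 0.7). The 6 pairs share genes, so they are not independent results. The share of all gene pairs that separate was not computed, while 37.9% of single tested genes separated in either direction.

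**Figure D4:**
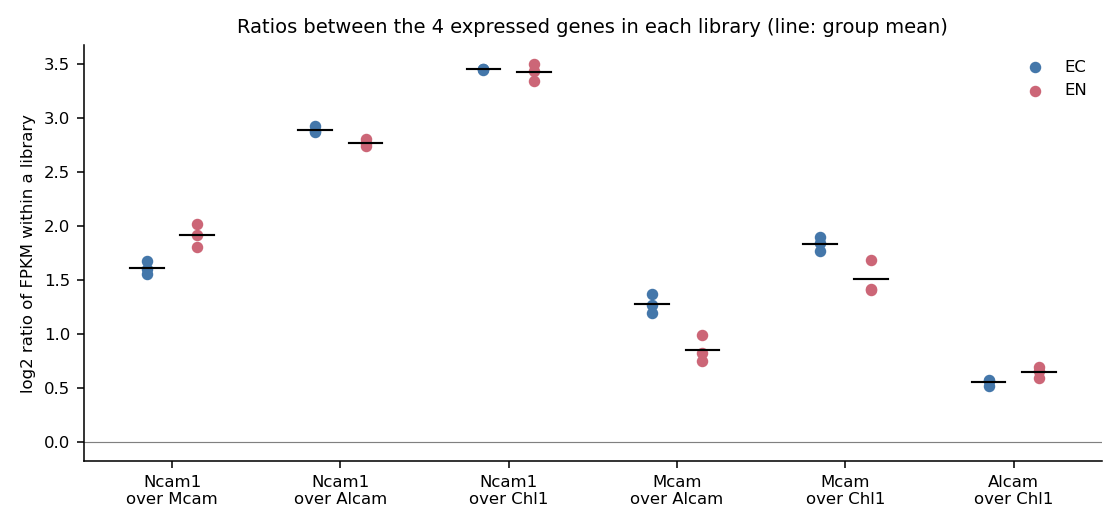
Log2 ratio of FPKM between each pair of the 4 tested genes in every library, EC in blue and EN in red, with lines at the group means. The groups separate in every pair but Ncam1 over Chl1, and the shift is widest for Mcam over Alcam, from a mean of 1.28 to 0.86.

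Partner genes were read from lists chosen by function. Among ligands and co-receptors of these molecules, 7 of 27 tested genes passed (25.9%, against 14.4% of all genes), 6 lower and 1 higher, with a median log2 change of -0.12. The riser was Sdc1, a syndecan, with means of 91.3 ± 0.960 FPKM in EC and 132.3 ± 3.14 in EN (SD over 3 libraries; limma adjusted p = 7.09e-04). Ptprz1, a receptor phosphatase that binds contactin-1 and NCAM-type molecules, fell from 31.9 to 25.5 FPKM (limma adjusted p = 0.0128). The prion protein gene Prnp, whose product associates with NCAM, fell from 189.8 to 167.1 FPKM. The extracellular ligand Tnc and the co-receptor Nrp1 fell by 0.24 and 0.33 on the log2 scale. Among genes that did not pass, Itgb1, an integrin partner of L1cam, was at 361.2 and 332.2 FPKM (limma adjusted p = 0.0741). The list's count was 3 when either EC replicate 2 or 3 was left out, 4 with EN replicate 2 left out and 12 with EN replicate 3 left out, and with the replicate number as a block it was 11.

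Other immunoglobulin superfamily adhesion genes had 6 of 20 tested members past the threshold (30.0%, against 14.4% of all tested genes). Of these, 4 were lower and 2 higher, and the median of the list was 0.04. Nptn (neuroplastin) and Nectin3 (Pvrl3 in the table) fell by 0.20 and 0.31 on the log2 scale, and Sdk2 (sidekick-2) and Mpzl1 rose by 0.39 and 0.19. Cadm4, a cell adhesion molecule of Schwann cells, was the highest tested member at 299.4 and 317.4 FPKM and did not pass. Of 46 members in the table, 26 were under the minimum. The count was 1 when EC replicates 2 or 3 or EN replicates 1 or 2 were left out. Calcium-dependent cadherins and catenins, another adhesion class, had 2 of 7 tested genes past the threshold (28.6%, against 14.4% of all tested genes). These were Cdh13 (fell by 0.30) and Cdh19 (fell by 0.45). Without any 1 of the same 4 libraries this count was 1, and without EN replicate 3 it was 3. Cdh2 (N-cadherin), at 172.9 and 158.6 FPKM, did not pass.

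Inside the cell, 2 of 16 tested cytoskeletal anchors passed (12.5%, against 14.4% of all tested genes, median 0.04). Actn4, an actin cross-linker that binds adhesion receptors, was at 263.9 ± 9.63 FPKM in EC and rose to 321.1 ± 4.76 in EN (SD over 3 libraries; limma adjusted p = 0.00881), and the scaffold gene Dlg1 fell by 0.21 on the log2 scale. The anchor count was 1 when EC replicates 2 or 3 or EN replicates 1 or 2 were left out, and 4 without EN replicate 3. Among signalling partners, 8 of 27 passed (29.6%, against the same 14.4%), 6 lower and 2 higher, with a median of -0.07. Camk2d, a calcium/calmodulin kinase subunit, fell by 0.34 and Rock2, a cytoskeletal kinase, by 0.33 on the log2 scale. Mapk3 (ERK1) fell by 0.19, whereas Map2k2 (MEK2) and the adaptor gene Shc1 rose by 0.28 and 0.21. With 1 library left out that count was 5 (EC replicate 1), 3 (EC replicate 3) or 2 (EC replicate 2, and each of EN replicates 1 and 2).

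Of the enzymes that modify or release these molecules, 1 of 12 tested genes passed (8.33%, against 14.4% of all tested genes, median -0.01). Plat, tissue plasminogen activator, was at 4.42 ± 0.114 FPKM in EC and fell to 3.17 ± 0.183 in EN (SD over 3 libraries, limma adjusted p = 0.0259). It passed only without EN replicate 3 among the fits that left out a library. Of GPI anchor genes, 3 of 23 passed (13.0%, against the same 14.4%, median -0.11). Pigk, the catalytic subunit of the transamidase that attaches the anchor, fell by 0.24, and Pigq and Dpm2 had log2 increases of 0.28 and 0.29. The GPI count was 5 in the fit that left out EN replicate 3. It was 1 with EC replicate 3 or EN replicate 1 left out, and no gene passed with either replicate 2 left out (limma, against 8 at an unadjusted p under 0.05 and 5 by voom with all libraries). Of the list genes named here, Sdc1, Tnc, Nrp1, Cdh13, Actn4, Camk2d and Map2k2 passed without each library in turn.

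**Figure D5:**
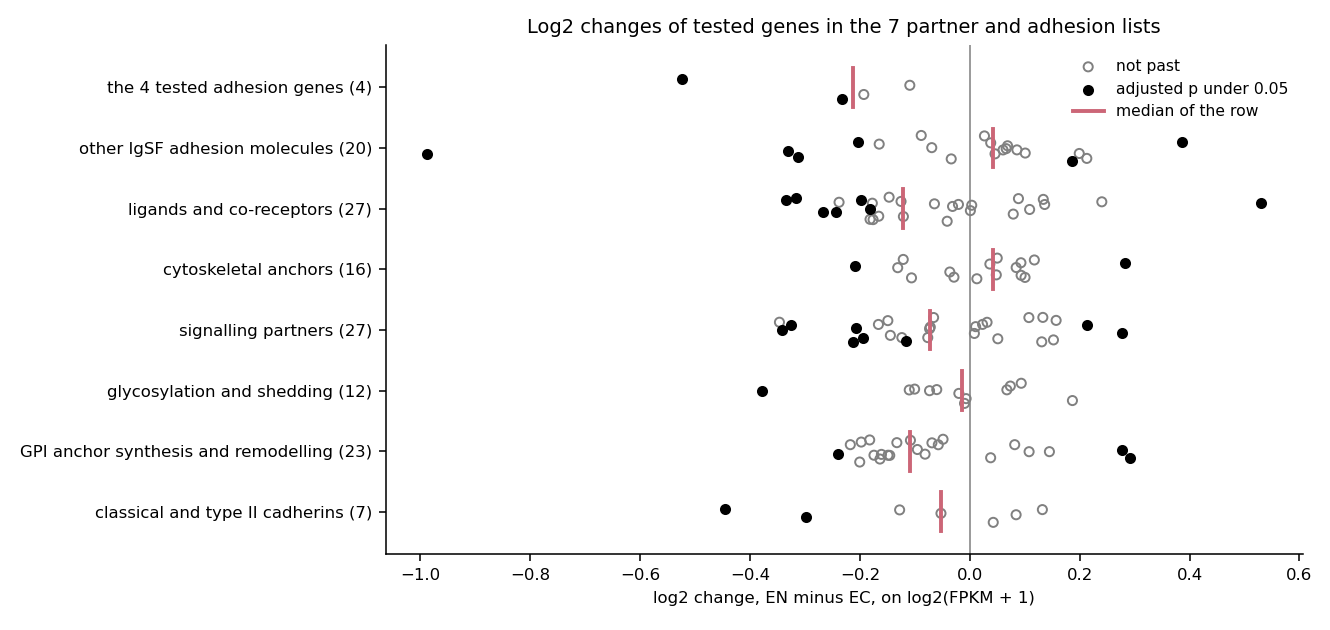
Log2 change (EN minus EC) of each tested gene in the 4 tested adhesion genes and the 7 lists of partners and other adhesion genes, with filled points past the threshold and red lines at the median of each row. The 4 adhesion genes, of which Mcam and Ncam1 passed, all lie below 0. The lists, each with more tested genes, hold genes on both sides of it.

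Cell type markers were read because several of the 9 genes are shared with glia, endothelium or nerve. Of 11 tested Schwann and glial markers, 7 passed (63.6%, against 14.4% of all genes), 6 lower and 1 higher. The number was 4, all lower, with either replicate 2 left out, 5 with EC replicate 3 or EN replicate 1 left out, and 7 with EC replicate 1 or EN replicate 3 left out. Their summed FPKM was 478.6 to 487.6 in EC and 421.9 to 454.5 in EN, so this sum was lower in EN, as Mcam and Ncam1 were. S100b was at 131.3 ± 1.15 and 95.4 ± 7.47 FPKM (SD, n = 3 each), while Sox10 was at 102.5 and 104.8. The part of this in the adhesion gene results was not tested. Of 11 endothelial markers in the table, 3 were tested and 1, Egfl7, was higher, a call that held in 1 of the 6 fits with a library left out, the one that left out EC replicate 1. Their sum was 7.0 to 9.0 FPKM in EC and 9.16 to 9.88 in EN. Of the 11, 8 were under the minimum, and the 3 tested had a median log2 change of 0.018. Plvap and Cldn5 were at 0 reads in all 6 libraries, Kdr had 1 read, and Tie1 was at 1.77 and 1.70 FPKM. Of 12 neuronal markers, 3 were tested (Map2, Tubb3 and Snap25) and Snap25, a synaptic SNARE gene, was lower, a call lost when EC replicates 2 or 3 or EN replicates 1 or 2 were left out. The neuronal sum was 15.7 to 17.7 FPKM in EC and 13.2 to 16.1 in EN.

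Among the other marker lists no tested gene passed in limma, nor by voom. For chromaffin markers this covers 3 genes (1 at an unadjusted p under 0.05), led by Scg2 at 63.2 and 64.7 FPKM. For fibroblast markers it covers 4 genes, led by Pdgfra at 65.0 and 64.6 FPKM, and for pericyte markers 2, led by Cspg4 at 40.6 and 43.2 FPKM, with no unadjusted p under 0.05 in either. For immune markers it covers 2 genes (1 at an unadjusted p under 0.05), led by Cd14 at 34.2 and 31.0 FPKM.

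Genes with the most similar pattern over the 6 libraries were found by Pearson correlation of log2(FPKM + 1) among 8441 named genes that averaged 5 FPKM or more. For Mcam they were Errfi1, a feedback inhibitor of EGF receptor signalling, Rgs16, a regulator of G protein signalling, and Ebp, an enzyme of sterol synthesis. Their r was 0.998, 0.997 and 0.995, and their log2 changes were -0.38, -0.55 and -0.51. For Ncam1 they were Casc5, a kinetochore gene, Serinc3 and Idh1, with r of 0.9995, 0.998 and 0.998 and log2 changes of -0.22, -0.25 and -0.38. With 6 points that fall into 2 groups, many genes reach such values, and they are given as a description only.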

How the data were processed

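RNA of 6 libraries, 3 EC and 3 EN by their titles, was measured. The authors deposited FPKM per gene model. The submitters' processing notes name HISAT2 2.0.5 and, as genome build, Rnor_6.0, but the sources used here do not state the counter, strand setting or filters. Multiplied by gene length, each FPKM was a whole number of equal steps in its library (100% of values within 0.001), and these were taken as whole reads. Models without a symbol held at most 0.848% of reads and stayed in the tests.

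The main test was limma 3.58.1 (R 4.3.3) with a mean-variance trend on log2(FPKM + 1), for genes whose mean reached 1 FPKM, two-sided, adjusted by Benjamini-Hochberg over all 12198. Single values were compared with exact permutation tests (SciPy 1.17.1). On data simulated for EN against EC over 12198 genes, 56.7% of genes changed 1.25-fold, 94.0% changed 1.5-fold and 100% changed 2-fold were recovered. Of 177 calls, 5.65% were false. The simulated spread came from the EC libraries alone, as medians over genes of similar level. Only a small share of genes was changed, all with a mean of at least 5 FPKM. Pairs of EN libraries differed by a chi-square per degree of freedom of up to 8.98, against 5.52 in EC. These rates need not hold for the real data. Libraries of the same group differed by a chi-square per degree of freedom of 3.82 to 8.98, so none is a copy of another.

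Members and lists were chosen with earlier results of these data known. Named genes are the 9 members and, per list, up to 5 genes with the smallest p-values past the threshold. The highest markers of each cell type and the 3 genes most correlated with each member that passed are also named. A few genes chosen this way are left unreported, and others that the text names for contrast were chosen after their values were seen. Of 292 list entries, 276 matched by symbol, 10 by an older symbol that RefSeq lists for GRCr8, and 6 were unmatched. Alternatives were pseudocounts, filters, scalings, a replicate block, no variance trend, voom with TMM factors on whole reads, and each library left out. Summing rows of 1 symbol was not run, as each member had 1 row.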

Additional observations from a re-analysis of the deposited data

How the results depend on the processing

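The directions of the 4 tested adhesion genes held under all 16 alternatives. The 1754 genes past the threshold became 866 without an expression filter and 1019 without the variance trend, and ranged from 338 to 2059 with 1 library left out. The number of adhesion genes past it was 1 to 2 with 1 library left out, and 3 with voom. The smallest log2 change of Ncam1 was -0.21 and that of Mcam -0.50.

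List counts that moved by over 1.5 times did so mainly when a library was left out: ranges were 1 to 8 for other immunoglobulin genes, 3 to 12 for ligands, 1 to 4 for anchors, 2 to 11 for signalling partners, 0 to 1 for glycosylation, 0 to 5 for GPI genes and 1 to 3 for cadherins. Without a filter the counts were 3 for other immunoglobulin genes, 3 for signalling, 0 for glycosylation, 1 for GPI genes and 1 for cadherins. Without the variance trend they were 1 for anchors and 3 for signalling. Voom gave 14 ligands, 2 glycosylation and 5 GPI genes, and a mean of at least 5 FPKM gave 5 GPI genes. The causes were not tested.

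With the replicate number as a block 1907 genes passed, the number of adhesion genes stayed at 2, and 11 ligand genes passed. Over all tested genes, libraries with the same number did not deviate together (correlations of 0.088, -0.095 and -0.020 for numbers 1 to 3). Deviations from means of 3 libraries cannot show whether equal numbers shared a culture or batch, and the labels do not say so.

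The check for outlying values within a group needs at least 4 libraries and was not run on these groups of 3. Genes under 1 FPKM were outside the limma fit, among them 5 of the adhesion genes.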
